A study of Mus musculus with 6 samples.

Results

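Nuclei from the brains of mice with P301S tau on a human APOE4 background (library TAFE4_oil) were set beside nuclei of mice with human APOE4 and no tau (library FE4). Nuclei were taken when they held at least 500 UMIs (unique molecular identifiers, one for each captured RNA molecule) and at least 300 detected genes, and when at most 5% of their UMIs came from mitochondrially encoded genes. This gave 13046 nuclei in TAFE4_oil and 16537 in FE4, 29583 of the 77421 that met the rule over all 6 libraries. With 703 and 619 marked doublets left out, 12343 and 15918 nuclei were read.

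TAFE4_oil mice carried P301S APOE4 fl/fl Aldh1la1CreERT, as the labels spell the genotype, and were given oil. FE4 mice carried APOE4 fl/fl and were untreated. All were B6 mice of 9 months, and both groups carried floxed human APOE4, that is, an APOE4 allele that Cre recombinase can remove. CreERT is a Cre that acts only in the presence of tamoxifen, and neither library came from mice given tamoxifen. The promoter of this Cre is known from its name alone, which resembles Aldh1l1, a gene of astrocytes. Tau, Cre and oil differ together between these libraries and cannot be told apart. A further library, TAFE4_tam, came from mice of the tau genotype that were given tamoxifen. Its values are given beside the others; its ratios share FE4 as the control, so they are no independent measure. The tissue is named as hippocampus in the sample titles, as the left hemisphere in the protocol and as brain in another label. The promoter that drives tau and the number of animals behind a library are not given in the sources used here. Each group was 1 library, so no test between animals was possible; square brackets hold exact 95% intervals that cover counting error only.

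P301S is a mutation of human tau, the microtubule-binding protein that aggregates in Alzheimer's disease and frontotemporal dementia, and mice that express it in neurons accumulate phosphorylated tau and lose neurons with age. APOE is the main lipid carrier of the brain, made mostly by astrocytes and, in disease, by microglia, and APOE4 is the allele tied to higher risk of Alzheimer's disease. Microglia, the resident phagocytes of the brain, are known to pass in mouse models of degeneration from a homeostatic state, marked by P2ry12 and Tmem119, to a disease-associated state with high Apoe, Spp1, Axl and Itgax. Astrocytes and oligodendrocytes are known to take on reactive states marked by Gfap, Vim, Serpina3n and C4b.

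The deposited tables held 49083723 UMIs in 18171 barcodes for FE4 and 46995438 in 16467 for TAFE4_oil, with median depths of 2344 and 2608 UMIs per nucleus read. The libraries differed in their mitochondrial RNA. The median mitochondrial share of a barcode was 0.625% in FE4, 2.35% in TAFE4_oil and 0.695% in TAFE4_tam. In the APOE3 libraries of the series it was 3.23% in FE3 (no tau), 2.01% in TAFE3_oil and 2.81% in TAFE3_tam. TAFE4_oil thus lay among the higher libraries, and FE4 and TAFE4_tam were the low ones. The 5% limit left out 8.66% of FE4, 20.8% of TAFE4_oil and 11.3% of TAFE4_tam. Within classes, 7.28% against 34.7% of microglia and 9.97% against 51.4% of astrocytes were left out in FE4 and TAFE4_oil, and 53.9% against 74.5% of vascular leptomeningeal cells. FE4 and TAFE4_oil shared 45 cell barcodes. Classes are named after the type whose marker genes their clusters hold (microglia-like, astrocyte-like and so on). Clusters without a class name held 1590 nuclei in FE4 (9.99%), 1414 in TAFE4_oil (11.5%) and 1426 in TAFE4_tam (11.5%). These nuclei count in the totals of shares but enter no class. Among them, a cluster with microglial markers held 72, 128 and 18 nuclei, and one with oligodendrocyte markers 262, 302 and 17. In microglia the summed microglial markers were 8536 CPM in FE4, 9231 in TAFE4_oil and 13473 in TAFE4_tam, and in granule neurons 142 CPM in FE4, 570.0 in TAFE4_oil and 593 in TAFE4_tam.

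The files held no human MAPT and no Cre feature, so the transgenes could not be read directly. Mouse Mapt, which encodes endogenous tau, stood at 194 CPM in FE4, 307 in TAFE4_oil and 308 in TAFE4_tam in granule neurons, a log2 ratio of TAFE4_oil over FE4 of 0.66 [0.52, 0.80]; CPM scales the UMIs of a class to a fixed total in each library. Prnp, the prion protein gene, whose promoter is used in some tau transgenes, was higher in TAFE4_oil in every class read, at 129 CPM in FE4, 336 in TAFE4_oil and 325 in TAFE4_tam in granule neurons and 237 CPM in FE4, 692 in TAFE4_oil and 552 in TAFE4_tam in astrocytes. Its log2 ratio was 1.38 [1.23, 1.52] in granule neurons, 1.23 in CA1 neurons, 1.55 in astrocytes, 1.06 in microglia and 0.80 in oligodendrocytes. The labels name no promoter, so these values check no label.

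Human APOE, the lipid carrier itself, was higher in TAFE4_oil in most classes and most of all in microglia. In microglia it stood at 1159.9 CPM in FE4, 22273 in TAFE4_oil and 21318 in TAFE4_tam, a log2 ratio of 4.26 [4.17, 4.35]. In astrocytes it stood at 9388 CPM in FE4, 18231 in TAFE4_oil and 5160.4 in TAFE4_tam, a log2 ratio of 0.96 [0.93, 0.99]. Microglia thus held less APOE than astrocytes in FE4 and more in TAFE4_oil, on the CPM scale for 1 gene. The log2 ratio was 1.38 in oligodendrocytes, 0.77 in their precursors, 1.65 in granule neurons, 1.75 in CA1 neurons and 0.01 in endothelial cells. Granule neurons, which are not a usual source of APOE, held 623 CPM in FE4, 1958 in TAFE4_oil and 856 in TAFE4_tam; the part of RNA from other cells in these values was not tested. Mouse Apoe moved alongside, from 139 to 3073 CPM in microglia, but it is a near-identical copy of APOE whose reads could be split between both features.

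Microglia made up a larger share of nuclei in TAFE4_oil and astrocytes a smaller one. Microglia numbered 630 nuclei in FE4, 1169 in TAFE4_oil and 1527 in TAFE4_tam, 3.96%, 9.47% and 12.4% of the nuclei read, and the log2 ratio of the shares in TAFE4_oil over FE4 was 1.26 [1.12, 1.401]. Astrocytes numbered 1208 nuclei in FE4, 316 in TAFE4_oil and 244 in TAFE4_tam, with a ratio of -1.57 [-1.75, -1.39]. Of glial nuclei alone, microglia were 15.1% in FE4, 43.0% in TAFE4_oil and 39.8% in TAFE4_tam, and astrocytes 29.0%, 11.6% and 6.36%. Both glial differences thus held with neurons out of the denominator. Oligodendrocytes numbered 1804 nuclei in FE4, 861 in TAFE4_oil and 1645 in TAFE4_tam; their share ratio was -0.70 in TAFE4_oil and 0.23 in TAFE4_tam, and it turned to 0.28 in TAFE4_oil among nuclei of at least 1000 UMIs and was -1.99 with a mitochondrial limit of 1%. Oligodendrocyte precursors numbered 497 nuclei in FE4, 326 in TAFE4_oil and 376 in TAFE4_tam, with a ratio of -0.24 [-0.45, -0.04]. Nuclei of the T cell cluster, lymphocytes that are rare in healthy brain, numbered 3 nuclei in FE4, 20 in TAFE4_oil and 49 in TAFE4_tam, a ratio of 3.104 [1.35, 5.50]. The mitochondrial limit bore on the glial shares: with no limit the microglial ratio was 1.58 and the astrocyte ratio -0.74, and with a limit of 1% the microglial ratio was -0.13.

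Neurons differed by region. Granule neurons of the dentate gyrus were 3504 nuclei in FE4, 616 in TAFE4_oil and 1496 in TAFE4_tam, with a share ratio of -2.14 [-2.27, -2.02] in TAFE4_oil and -0.86 in TAFE4_tam. CA1 neurons were 1952, 307 and 924 nuclei, with ratios of -2.30 [-2.48, -2.13] and -0.71. CA2 or CA3 neurons were 1328, 290 and 712 nuclei, with ratios of -1.83 [-2.02, -1.64] and -0.53. Against these, upper-layer cortical neurons were 121 nuclei in FE4, 2992 in TAFE4_oil and 1010 in TAFE4_tam, a ratio of 5.00 [4.73, 5.27]. With coarser clusters (resolution 0.5) this class held 935 nuclei in FE4 and 3791 in TAFE4_oil, a ratio of 2.39 [2.28, 2.49]. Hippocampal and cortical nuclei were thus sampled in unlike proportions, and a smaller hippocampal share cannot be told apart from a dissection that held more cortex. Among hippocampal excitatory neurons alone, granule neurons made up 51.7% in FE4, 50.8% in TAFE4_oil and 47.8% in TAFE4_tam. CA1 neurons made up 28.8%, 25.3% and 29.5%, and CA2 or CA3 neurons 19.6%, 23.9% and 22.7%. The makeup of the hippocampal neurons that remained in the sample was therefore much closer between libraries than their share of all nuclei. Since tissue proportions differ this far, genes are not read in upper-layer, deep-layer and Cajal-Retzius nuclei.

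**Figure D1:**
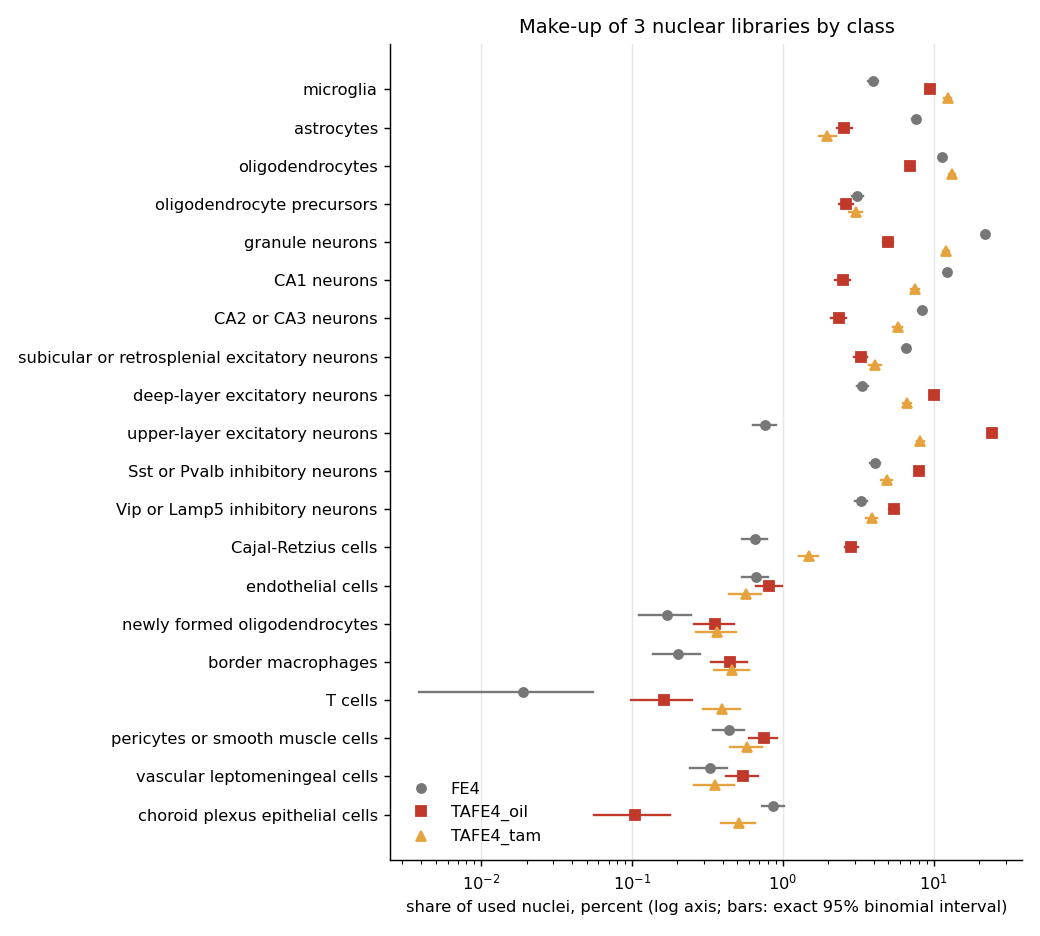
Share of nuclei by class, in percent of all nuclei read on a log axis, for FE4, TAFE4_oil and TAFE4_tam (1 library each, bars exact 95% binomial intervals for counting error only). Microglia lie higher in both tau libraries (3.96% against 9.47% and 12.4%), and granule and CA1 neurons are lower in TAFE4_oil than in the other libraries.

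Genes were then compared within each class. The UMIs of all nuclei of a class were summed per library, and a gene was tested when it had at least 50 UMIs over both libraries and counted when its log2 ratio passed 1 (2-fold). In microglia, 7945 genes were tested on 883698 UMIs in FE4 and 1662003 in TAFE4_oil; 9.58% were higher past 2-fold and 1.89% lower, with a median log2 ratio over all genes of 0.17. These were 761 and 150 genes; with TMM factors (edgeR's scaling) the shares were 6.66% and 2.91%. TMM factors moved the median of all genes in the classes read from between 0.14 and 0.26 to between -0.11 and 0.19, so a list's median is to be read beside that of all genes, and medians close to 0 change sign with the scaling. Members of a list that missed the 50 UMIs are not in its counts, so a count describes the genes tested and not the whole list. Some members reached 50 UMIs only through TAFE4_oil, since at their FE4 level in both libraries they would have missed it, and such members had to differ. In microglia these were 14 of the 36 tested disease-associated genes, 8 of 17 interferon-stimulated, 7 of 16 MHC class I and 4 of 9 MHC class II genes. They were also 5 of 14 cytokine, 8 of 27 lipid, 3 of 11 complement, 3 of 25 phagocytic, 3 of 45 lysosome and 2 of 23 glycolysis genes. Counts and medians of these lists describe the genes that passed and support no statement on the lists. For other classes the number of such members was not determined, so the same limit holds for counts and medians of lists there.

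Many genes of the disease-associated state were higher in TAFE4_oil microglia. Of 45 listed genes, 30 of the 36 tested were higher past 2-fold and 0 lower, with a median log2 ratio of 2.37, and among the 22 that did not need TAFE4_oil to be tested 16 were higher and 0 lower; the same 36 members had a median of 2.69 in TAFE4_tam over FE4. Spp1, which encodes the secreted phosphoprotein osteopontin, stood at 6.79 CPM in FE4, 509.6 in TAFE4_oil and 826 in TAFE4_tam, a log2 ratio of 6.23 [5.10, 7.68]. Axl, a receptor tyrosine kinase for phosphatidylserine bridging proteins, stood at 1.13 CPM in FE4, 98.1 in TAFE4_oil and 184 in TAFE4_tam; with 1 UMI in FE4 its ratio was 6.44 [3.94, 11.75]. Itgax, the integrin CD11c, had 2 UMIs in FE4 and 144 in TAFE4_oil, a ratio of 5.26 [3.38, 8.32]. Clec7a, the beta-glucan receptor Dectin-1, had 0 UMIs in FE4 and 94 in TAFE4_oil, at least 4.06 on the log2 scale against a floor of 3 UMIs. FE4 microglia thus held almost no RNA of these surface genes. Cybb, the catalytic subunit of the phagocyte NADPH oxidase, had a ratio of 5.07 [3.18, 8.13]. Csf1, a growth factor for microglia, had a ratio of 2.44 [1.67, 3.31], and Lpl, a lipase that releases fatty acids from lipoproteins, 2.38 [1.73, 3.099]. Lysosomal and membrane members moved less: Cd63, a tetraspanin, stood at 96.2 CPM in FE4, 502 in TAFE4_oil and 526 in TAFE4_tam, a ratio of 2.38 [2.06, 2.72], and the cathepsin genes Ctsb and Ctsd had ratios of 1.51 and 1.36. Trem2, the lipid receptor known to be needed for this state, stood at 488 CPM in FE4, 749.7 in TAFE4_oil and 1086 in TAFE4_tam, a ratio of 0.62 [0.46, 0.78] that did not pass 2-fold. Its adaptor Tyrobp (0.75), Cd68 (0.83), Hif1a (0.98) and Cadm1 (0.47) also stayed below 2-fold.

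Homeostatic genes were lower, but unevenly. Of 33 listed genes, 0 of the 32 tested were higher past 2-fold and 12 lower, with a median of -0.67 and -0.07 in TAFE4_tam. P2ry12, the purinergic receptor by which microglial processes sense ATP, stood at 222 CPM in FE4, 41.5 in TAFE4_oil and 112 in TAFE4_tam, a ratio of -2.42 [-2.83, -2.01]; TAFE4_tam lay between the other libraries. Selplg, the selectin ligand PSGL-1, stood at 407 CPM in FE4, 92.7 in TAFE4_oil and 168 in TAFE4_tam, a ratio of -2.14 [-2.42, -1.86]. Ecscr, an endothelial and microglial membrane protein, stood at 109.8 CPM in FE4, 16.8 in TAFE4_oil and 31.0 in TAFE4_tam, a ratio of -2.70 [-3.37, -2.08]. The ratio was -2.36 for the fructose transporter Slc2a5, -1.998 for Tmem119 and -1.54 for the Golgi protein Golm1. Core receptors were lowered less: -0.67 for Cx3cr1 and -0.47 for Csf1r, the receptors for fractalkine and for CSF1, and -0.15 for cystatin C (Cst3). The transcription factor gene Mef2c did not share the direction, with 0.86. The TGF-beta receptor Tgfbr2 had 0.04. Among microglial nuclei of at least 1000 UMIs, 156 in FE4 and 504 in TAFE4_oil, the median of the homeostatic list was -0.01. With 1000 UMIs drawn from each, 21.2% of the 156 FE4 nuclei held neither APOE nor a UMI of chosen homeostatic genes. With 500 drawn, 16.5% of all 630 FE4 microglia held neither. Median APOE counts in FE4 were 0 and 1 UMIs. In TAFE4_oil 1.39% and 1.45% held neither. Whether the deep FE4 nuclei hold RNA of other cells was not tested. These nuclei also enter the FE4 sums behind the microglial ratios. With the 1% mitochondrial limit, which keeps 65 microglia of TAFE4_oil, the disease-associated median was 0.54 and the homeostatic median -1.39. With at least 200 UMIs per gene the disease-associated median was 1.38, since scarcer genes such as Axl and Itgax are then left out.

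**Figure D2:**
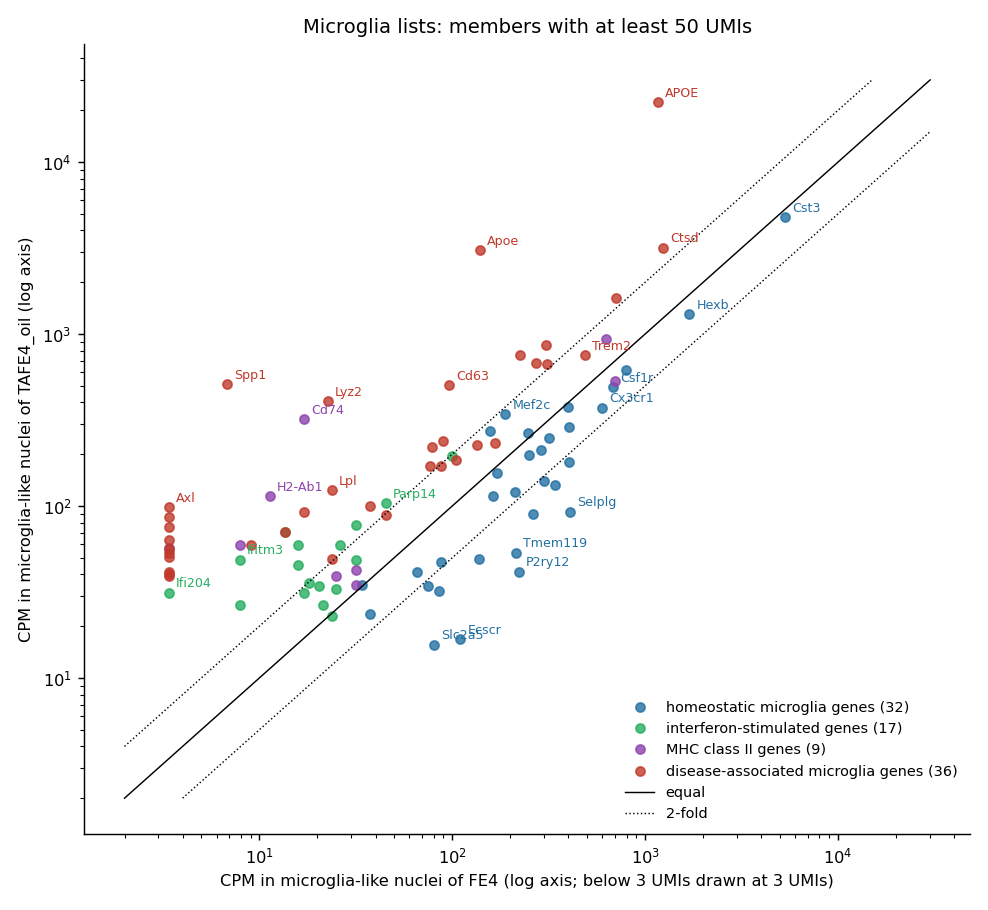
Level of each tested gene of 4 lists in microglia, in CPM on log axes, with FE4 on the horizontal and TAFE4_oil on the vertical axis (1 library each, no error drawn; the solid line marks equal levels, dotted lines 2-fold, and genes under 3 UMIs in FE4 are drawn at 3). All 36 disease-associated genes lie above the line of equal levels, with Spp1 at 6.79 CPM in FE4 and 509.6 in TAFE4_oil, and 28 of the 32 homeostatic genes below it.

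Per nucleus, APOE was spread over nearly all TAFE4_oil microglia. To remove depth, every nucleus was thinned to 500 UMIs; median depths before thinning were 751 UMIs in FE4, 958 in TAFE4_oil and 914 in TAFE4_tam microglia, and 2210.5, 2677 and 2231 in granule neurons, which serve as the class with little of these genes of its own. Microglia with at least 1 APOE UMI were 54.3% in FE4, 97.6% in TAFE4_oil and 97.6% in TAFE4_tam, against 29.5%, 62.0% and 36.5% of granule neurons; unthinned, the microglial shares were 76.3%, 99.9% and 99.6%. Granule neurons thus also held a single APOE UMI often. With at least 5 APOE UMIs of 500, microglia were 1.11% in FE4, 84.3% in TAFE4_oil and 76.1% in TAFE4_tam, against 0.0856%, 0.649% and 0 of 1496 granule neurons. The median microglial nucleus held 1 APOE UMI in FE4, 13 in TAFE4_oil and 9 in TAFE4_tam, and the 10th to 90th percentiles ran from 0 to 2, 3 to 29 and 2 to 22. The whole distribution was shifted, and not a small subset of nuclei. At least 20 APOE UMIs were held by 0 of 630 FE4 microglia, which allows a share of up to 0.476% (3 counts of the nuclei), by 28.4% in TAFE4_oil and by 14.5% in TAFE4_tam.

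Homeostatic RNA was seen in the same nuclei as APOE. Counting nuclei with a UMI of APOE and of any of 6 homeostatic genes, 40.3% of microglia held both in FE4, 34.1% in TAFE4_oil and 44.7% in TAFE4_tam. APOE alone was held by 13.97%, 63.5% and 52.98%, and homeostatic RNA alone by 29.2%, 0.941% and 1.44%. Neither was seen in 16.5%, 1.45% and 0.917%. With APOE in nearly all nuclei of the tau libraries, any group without it is small by construction. P2ry12 was detected in 14.8% in FE4, 2.74% in TAFE4_oil and 5.04% in TAFE4_tam of microglia (granule neurons 0.171%, 0.162% and 0.535%), and Cx3cr1 in 34.4% in FE4, 19.3% in TAFE4_oil and 24.6% in TAFE4_tam. Spp1, detected in 0.476% in FE4, 18.9% in TAFE4_oil and 21.3% in TAFE4_tam (granule neurons 0.200%, 2.44% and 2.47%), and Axl, in 0.159% in FE4, 7.10% in TAFE4_oil and 8.19% in TAFE4_tam, marked fewer nuclei than APOE. Trem2 was detected in 29.7% in FE4, 37.9% in TAFE4_oil and 43.0% in TAFE4_tam (granule neurons 0.228%, 2.60% and 2.34%), and C1qa in 62.9% in FE4, 73.6% in TAFE4_oil and 79.1% in TAFE4_tam (granule neurons 1.37%, 6.98% and 8.42%).

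**Figure D3:**
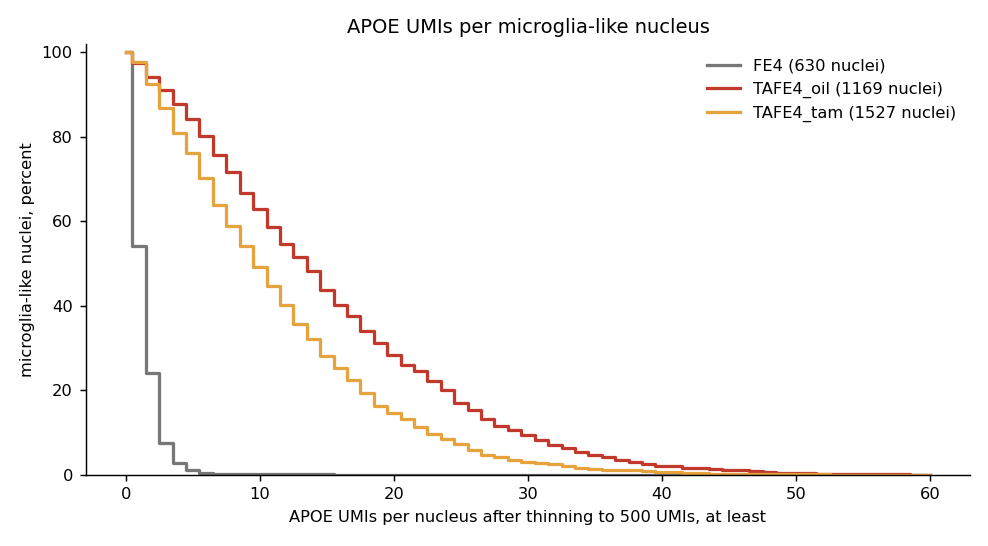
Share of microglial nuclei, in percent, that hold at least the number of APOE UMIs on the horizontal axis after thinning each nucleus to 500 UMIs, for FE4, TAFE4_oil and TAFE4_tam (1 library each). The FE4 curve drops to 1.11% by 5 UMIs, while the medians of TAFE4_oil and TAFE4_tam are 13 and 9.

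Some antigen-presentation genes were higher in TAFE4_oil microglia. For MHC class I, which presents peptides from inside the cell, 9 of the 16 tested were higher past 2-fold and 0 lower, with a median of 1.29 and 2.21 in TAFE4_tam. Among the 9 that did not need TAFE4_oil to be tested, 4 were higher and 0 lower. B2m, the invariant light chain, had a ratio of 1.41 [1.06, 1.78], and Tap1, a subunit of the peptide transporter, 1.90 [0.88, 3.09]. Its partner subunit Tap2 had -0.32 [-0.81, 0.18]. The heavy chain genes H2-K1 and H2-D1 stood at 112 CPM in FE4, 752 in TAFE4_oil and 1399 in TAFE4_tam and at 166 CPM in FE4, 1018 in TAFE4_oil and 1803 in TAFE4_tam, ratios of 2.75 [2.45, 3.06] and 2.61 [2.37, 2.87]; heavy chains are near-identical copies between which reads may be split, so single members are uncertain. H2-K1 was detected in 7.62% in FE4, 36.8% in TAFE4_oil and 49.97% in TAFE4_tam of thinned microglia (granule neurons 0.771%, 5.52% and 4.68%). For MHC class II, which presents peptides taken up from outside, 4 of the 9 tested were higher past 2-fold and 0 lower, and the 4 were the chains and chaperone of the class II complex itself. Among the 5 that did not need TAFE4_oil to be tested, 0 were higher and 0 lower. The 4 had to differ to be tested, so their count supports no statement on the list. Cd74, the invariant chain, stood at 16.97 CPM in FE4, 319 in TAFE4_oil and 488 in TAFE4_tam, a ratio of 4.23 [3.50, 5.08], and H2-Aa, H2-Ab1 and H2-Eb1 had ratios of 4.07, 3.33 and 2.90. Border macrophages and T cells also express class II or class I genes: border macrophage markers summed to 5.66 CPM in FE4, 66.2 in TAFE4_oil and 58.1 in TAFE4_tam in microglia, and their part in the result was not tested. With the 1% mitochondrial limit the class I median was 0.16.

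Interferon-stimulated genes were mostly too scarce to test in microglia, with 17 of 53 listed genes passing 50 UMIs. Of these, 9 of the 17 tested were higher past 2-fold and 0 lower, with a median of 1.18 and 2.67 in TAFE4_tam. Among the 9 that did not need TAFE4_oil to be tested, 3 were higher and 0 lower. Ifitm3, a membrane protein that blocks virus entry, stood at 7.92 CPM in FE4, 48.7 in TAFE4_oil and 86.5 in TAFE4_tam, a ratio of 2.62 [1.51, 3.98]. Bst2, the virus tether tetherin, stood at 15.8 CPM in FE4, 45.1 in TAFE4_oil and 114 in TAFE4_tam, a ratio of 1.51 [0.68, 2.45], and the giant ubiquitin ligase Rnf213 at 7.92 CPM in FE4, 26.5 in TAFE4_oil and 83.2 in TAFE4_tam, a ratio of 1.74 [0.58, 3.14]. The galectin Lgals9 had -0.06 [-0.86, 0.79]. Nuclei with at least 3 UMIs of the interferon list after thinning were 0.794% of FE4, 6.84% of TAFE4_oil and 25.1% of TAFE4_tam microglia. In granule neurons they were 0.0285%, 0% and 0.802%. The tau library without tamoxifen thus lay far below the tau library with tamoxifen for this list.

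Promoters of these genes were read for the interferon-stimulated response element, the site bound by STAT and IRF factors, since the interferon lists include genes that passed 2-fold and genes that did not. The RefSeq promoter windows (GRCm38.p6) run from 250 bases before to 50 after a start site, and the motif searched was GAAA, any 2 bases and GAAA again, or TTTC, any 2 bases and TTTC, which is the same motif on the other strand. It was present in 24 of 43 interferon-list promoters (55.8%), 4 of 17 for MHC class I (23.5%), 3 of 33 for disease-associated genes (9.09%) and 0 of 24 for homeostatic genes, against 1079 of 27025 promoters in all (3.99%). Within the interferon list, in microglia 3 of 6 genes past 2-fold and 5 of 7 not past it held the motif, and in astrocytes 6 of 9 and 2 of 3. Sequences of 40 bases around one match are shown 5′ to 3′ on the gene's strand with the motif in capitals, for genes named here: Bst2, past 2-fold in microglia and astrocytes, Gbp7 and Cxcl10, past it in astrocytes, Stat2 and Lgals9, not past it in microglia, and Isg15, read in endothelial cells. All lie upstream of the start site, and in Isg15 and Bst2 another match overlaps the one shown.
Bst2 chr8:71537578-71537617 (-): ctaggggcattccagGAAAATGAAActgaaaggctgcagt
Isg15 chr4:156200866-156200905 (-): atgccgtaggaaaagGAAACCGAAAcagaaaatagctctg
Gbp7 chr3:142530268-142530307 (+): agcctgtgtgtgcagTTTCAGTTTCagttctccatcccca
Cxcl10 chr5:92349078-92349117 (-): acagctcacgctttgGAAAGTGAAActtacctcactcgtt
Stat2 chr10:128270261-128270300 (+): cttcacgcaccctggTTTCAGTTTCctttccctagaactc
Lgals9 chr11:78984955-78984994 (-): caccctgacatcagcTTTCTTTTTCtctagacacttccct
These counts are too small to say whether the motif goes with the genes that passed 2-fold.

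Lysosomal, lipid, complement and cytokine genes were read next in microglia. Of the lysosome and acidification genes, 12 of the 45 tested were higher past 2-fold and 0 lower, with a median of 0.61 that turned to -0.044 with the 1% mitochondrial limit. Among the 42 that did not need TAFE4_oil to be tested, 10 were higher and 0 lower. Glb1, lysosomal beta-galactosidase, was the farthest at 1.93 [1.05, 2.94], while Ctsf (cathepsin F) and Laptm5 had -0.44 and -0.38. Of the lipid efflux, uptake and storage genes, 10 of the 19 that did not need TAFE4_oil to be tested were higher past 2-fold and 0 lower. Of all 27 tested, 15 were higher past 2-fold and 0 lower, with a median of 1.07. They included Plin2, which coats lipid droplets, at 5.66 CPM in FE4, 29.5 in TAFE4_oil and 44.9 in TAFE4_tam, a ratio of 2.38 [1.06, 4.07], and the fatty acid binding gene Fabp3, with 1.83 [0.81, 3.02]; the lipid transporter Abca7 had -0.60 [-1.35, 0.16]. Of the complement genes, 4 of the 11 tested were higher past 2-fold and 0 lower, with a median of 0.59 that turned to -0.41 with the 1% mitochondrial limit. Among the 8 that did not need TAFE4_oil to be tested, 1 was higher and 0 lower. C4b, which builds the C3 convertase, stood at 12.4 CPM in FE4, 104 in TAFE4_oil and 179.6 in TAFE4_tam, a ratio of 3.06 [2.19, 4.09], the C3a receptor C3ar1 had 1.62 [0.64, 2.76] and C1qb, a chain of the initiating complex that microglia make, 0.63 [0.51, 0.75]. Of the cytokine, chemokine and inflammasome genes, 6 of the 14 tested were higher past 2-fold and 0 lower. Among the 9 that did not need TAFE4_oil to be tested, 1 was higher and 0 lower. The chemokine Ccl3 had 1 UMI in FE4 and 88 in TAFE4_oil, a ratio of 5.55 [3.03, 10.87], its relative Ccl4 4.23 [2.65, 6.53], Ccl12 2.59 [1.48, 3.95] and Cxcl16 1.98 [0.97, 3.17]. Phagocytic receptors were split: 4 of the 25 tested were higher past 2-fold and 1 lower, with a median of 0.02. Among the 22 that did not need TAFE4_oil to be tested, 1 was higher and 1 lower. Tlr2, a receptor for bacterial lipoproteins, and the inhibitory Fc receptor Fcgr2b had 1.54 and 1.45, while the scavenger receptor Stab1 and the integrin Itgam had -1.08 and -0.65.

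Glycolysis genes had a median of 0.61 in microglia (7 of the 23 tested were higher past 2-fold and 1 lower), with 1.92 for Aldoc and 1.68 for Pgam1, and metallothionein, NRF2 and iron genes a median of 0.94, with 2.11 for Mt2 and 1.70 for Mt1, the metal-binding metallothioneins. By size among genes at home in microglia with at least 100 UMIs over both libraries, sums of 1 or 2 UMIs being set to 3 for the ranking, the highest ratios were those of Spp1, Axl, Adam33, Itgax and Cybb, besides the microRNA host Mir6236, whose multi-copy sequence makes it uncertain. Adam33, a metalloprotease gene, had 2 UMIs in FE4 and 159 in TAFE4_oil, a ratio of 5.40 [3.52, 8.46]. Tnfsf8, a ligand of the TNF family, had 1 UMI in FE4 and 112 in TAFE4_oil, a ratio of 5.90 [3.39, 11.21] as counted, and ranked lower with the FE4 sum at 3. The lowest were Ecscr, P2ry12, Selplg, Tmem119, Crym and Golm1, Slc2a5 having fewer than 100 UMIs; Crym, a thyroid hormone binding crystallin, stood at 127 CPM in FE4, 38.5 in TAFE4_oil and 44.9 in TAFE4_tam, a ratio of -1.72 [-2.19, -1.26]. Neuronal transcripts, a measure of free RNA, had a median of -0.18 in microglia, but inhibitory neuron markers summed to 304 CPM in FE4, 865 in TAFE4_oil and 502 in TAFE4_tam.

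In astrocytes most of the tested reactive genes were higher. With 9289 genes tested, 11.7% were higher past 2-fold and 4.53% lower; these were 1091 and 421 genes, and the split turned with TMM factors to 4.98% higher and 9.05% lower. Of 46 reactive genes, 16 of the 19 tested were higher past 2-fold and 2 lower, with a median of 1.89 (1.98 in TAFE4_tam) beside 0.18 over all genes. Gfap, the intermediate filament that defines reactive astrocytes, stood at 249.95 CPM in FE4, 1381 in TAFE4_oil and 1515 in TAFE4_tam, a ratio of 2.47 [2.33, 2.60]. Vim, a second filament gene, stood at 52.6 CPM in FE4, 354 in TAFE4_oil and 262 in TAFE4_tam, a ratio of 2.75 [2.47, 3.03], and Serpina3n, a secreted protease inhibitor, at 5.35 CPM in FE4, 64.9 in TAFE4_oil and 79.1 in TAFE4_tam, a ratio of 3.60 [2.80, 4.47]. Ratios were 2.58 for S100a6, 2.48 for S100a10, 2.26 for Osmr and 2.13 for Cryab, the calcium-binding S100 proteins, the oncostatin M receptor and a small heat shock protein. Against the list, Fkbp5, a target of glucocorticoids, and the matrix protein Tnc had -1.52 [-2.77, -0.48] and -1.41 [-3.09, -0.10]. With the 1% mitochondrial limit the median of the reactive list was 0.80. Gfap was detected in 10.8% in FE4, 39.2% in TAFE4_oil and 34.8% in TAFE4_tam of astrocytes thinned to 500 UMIs. In granule neurons it was detected in 0.828%, 10.4% and 3.41%. The granule neuron share was thus also higher in TAFE4_oil, and how much of it was free RNA was not tested. Median astrocyte depths were 1786, 1901 and 1631 UMIs. Vim was detected in 2.65% in FE4, 14.6% in TAFE4_oil and 9.02% in TAFE4_tam (granule neurons 0.599%, 2.27% and 2.47%). Cxcl5, a neutrophil chemokine, led the astrocyte genes at 9.51 CPM in FE4, 131 in TAFE4_oil and 95.8 in TAFE4_tam, a ratio of 3.79 [3.20, 4.41]; it was detected in 0.497% in FE4, 4.43% in TAFE4_oil and 2.87% in TAFE4_tam of nuclei, against 0%, 0.325% and 0.401% of granule neurons.

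Many of the tested immune genes were higher in astrocytes, beside more microglial RNA. The summed microglial markers in astrocytes were 172 CPM in FE4, 1045 in TAFE4_oil and 809.8 in TAFE4_tam, a log2 ratio of 2.60; the part of this RNA in the results that follow was not tested. Of the complement genes, 5 of the 6 tested were higher past 2-fold and 0 lower; 3 of the 5 were C1qa, C1qb and C1qc, which microglia make, with 3.38, 3.37 and 2.55. The other two, C4b and clusterin (Clu), are known astrocyte genes and had 1.89 [1.70, 2.08] and 1.39 [1.31, 1.46]. For MHC class I, 6 of the 10 tested were higher past 2-fold and 0 lower, with B2m at 24.1 CPM in FE4, 141 in TAFE4_oil and 181 in TAFE4_tam, a ratio of 2.56 [2.13, 2.99]. For interferon-stimulated genes, 10 of the 14 tested were higher past 2-fold and 0 lower, with a median of 1.54 and 2.54 in TAFE4_tam. Ifitm3 stood at 15.5 CPM in FE4, 122 in TAFE4_oil and 216 in TAFE4_tam, a ratio of 2.98 [2.48, 3.50], and Bst2, the GTPase gene Gbp7 and the chemokine Cxcl10 had 2.71, 2.13 and 2.24. For Cxcl10 the ratio in TAFE4_tam was 5.59. Interferon-rich nuclei (at least 3 UMIs of the list) were 0.166% in FE4, 1.90% in TAFE4_oil and 12.7% in TAFE4_tam astrocytes.

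Genes of astrocyte function moved less. Of the transporter, channel and junction genes, 9 of the 30 tested were higher past 2-fold and 0 lower, with a median of 0.58. Kcnj10, the potassium channel Kir4.1, had 1.79 [1.36, 2.22], Mlc1 1.26 [1.05, 1.47] and the water channel Aqp4 1.17 [1.01, 1.33], while the glutamate receptor Grm5 had -0.45 [-0.80, -0.12]. Summed astrocyte markers, Aqp4 and Gfap among them, were also higher in astrocytes, at 10159 CPM in FE4, 16376 in TAFE4_oil and 19095 in TAFE4_tam. The log2 ratio of this sum was 0.69 [0.66, 0.72], and its part in the astrocyte values was not tested. Of the lipid genes, 6 of the 26 tested were higher past 2-fold and 1 lower: the cholesterol exporters Abca1 and Abcg1 had 1.67 and 1.56 and the carrier Apod 1.91. Cholesterol synthesis genes had a median of 0.05, below that of all genes, and 1 of the 23 tested were higher past 2-fold and 1 lower. Of the metallothionein, NRF2 and iron genes, 10 of the 18 tested were higher past 2-fold and 0 lower, led by the peroxidase gene Prdx6 with 1.87 [1.72, 2.03] and ferritin light chain Ftl1 with 1.67 [1.45, 1.88]; the iron importer Slc11a2 had -0.73 [-1.33, -0.17]. The farthest lower genes at home in astrocytes were Zfhx4 (-1.66), B3gat2 (-1.46), Pyroxd1 (-1.38), Sec14l2 (-1.32) and the mitochondrial calcium uniporter gene Mcu (-1.25). B3gat2, Pyroxd1, Sec14l2 and Mcu changed sign with the 1% mitochondrial limit, where 17 TAFE4_oil astrocytes remained.

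Oligodendrocytes, the myelin-forming cells, had higher C4b and H2-D1, higher values for most tested reactive genes, and near-unmoved myelin genes. With 7544 genes tested, 6.36% were higher past 2-fold and 1.03% lower (480 and 78 genes; 2.85% and 2.36% with TMM factors). Of 30 reactive oligodendrocyte genes, 13 of the 23 tested were higher past 2-fold and 2 lower, with a median of 1.13 (1.01 in TAFE4_tam) beside 0.16 over all genes. C4b stood at 100.4 CPM in FE4, 1084 in TAFE4_oil and 1356 in TAFE4_tam, a ratio of 3.43 [3.20, 3.67], and was detected in 4.55% in FE4, 39.5% in TAFE4_oil and 43.3% in TAFE4_tam of thinned nuclei against 0.200%, 1.95% and 2.07% of granule neurons. H2-D1 had 3.03 [2.71, 3.37] and was detected in 3.16% in FE4, 19.6% in TAFE4_oil and 22.4% in TAFE4_tam, against 1.66%, 7.31% and 7.89% of granule neurons. In each library both genes were thus detected in a larger share of oligodendrocytes than of granule neurons, with a smaller gap for H2-D1. Both were also detected more often in granule neurons of TAFE4_oil than of FE4. The part of free RNA in these differences was not tested. Median oligodendrocyte depths were 852, 1069 and 966 UMIs. Cdkn1a, the cell cycle inhibitor p21, stood at 4.16 CPM in FE4, 50.9 in TAFE4_oil and 29.8 in TAFE4_tam, a ratio of 3.61 [2.47, 5.00], and Gadd45b, a stress-response gene, had 1.69 [1.09, 2.31]. Serpina3n and Vim had 2.62 and 2.25. Fcho1, an endocytosis adaptor, had 2.32 [1.85, 2.81] and was detected in 1.22% in FE4, 7.32% in TAFE4_oil and 8.81% in TAFE4_tam of nuclei. In granule neurons it was detected in 5.25%, 4.22% and 5.61%. Whether these neurons express Fcho1 themselves was not tested, so they are not read as a background for this gene.

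Sgk1 and Fkbp5 were among the lower oligodendrocyte genes. Sgk1, a serum- and glucocorticoid-regulated kinase gene, stood at 361 CPM in FE4, 108 in TAFE4_oil and 115 in TAFE4_tam, a ratio of -1.75 [-2.05, -1.46], and was detected in 14.9% in FE4, 5.11% in TAFE4_oil and 5.35% in TAFE4_tam of nuclei (granule neurons 1.83%, 2.76% and 1.94%). Fkbp5, a target of glucocorticoids, had -1.81 [-2.84, -0.92] here, besides the ratio of -1.52 in astrocytes given above and -1.34 [-2.01, -0.74] in CA1 neurons. Polr3e, a subunit of RNA polymerase III, stood at 293 CPM in FE4, 75.5 in TAFE4_oil and 109.5 in TAFE4_tam, a ratio of -1.96 [-2.32, -1.62], and Ist1 and the protocadherin gene Pcdh20 had -1.78 [-2.48, -1.13] and -1.57 [-2.39, -0.83]. Of the myelin genes, 0 of the 29 tested were higher past 2-fold and 1 lower, with a median of -0.06; the 1 lower was Mobp, a structural myelin protein gene, at 1101 CPM in FE4, 549.9 in TAFE4_oil and 748 in TAFE4_tam, a ratio of -1.002 [-1.14, -0.87]. Of the cholesterol synthesis genes, 0 of the 16 tested were higher past 2-fold and 0 lower, with a median of -0.17. Microglial markers in oligodendrocytes summed to 341 CPM in FE4, 1327 in TAFE4_oil and 1312 in TAFE4_tam, a ratio of 1.96; Spp1, a microglial gene in TAFE4_oil, had 3.35 [2.59, 4.21] in oligodendrocytes, and the part of microglial RNA was not tested.

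In oligodendrocyte precursors, 7.93% of 4918 genes were higher past 2-fold and 1.26% lower (390 and 62 genes; 4.17% and 2.72% with TMM factors). C4b was again farthest, at 16.1 CPM in FE4, 257 in TAFE4_oil and 532 in TAFE4_tam, a ratio of 3.99 [3.17, 4.94], and was detected in 1.01% in FE4, 14.4% in TAFE4_oil and 22.1% in TAFE4_tam of thinned nuclei. Chchd10, a mitochondrial cristae protein gene, Glul, the glutamine synthetase gene, and the nuclear RNA Neat1 had 2.64 [1.97, 3.36], 2.41 [1.77, 3.08] and 2.37 [2.06, 2.69]. Of the precursor and lineage genes, 1 of the 21 tested were higher past 2-fold and 0 lower, with a median of 0.14; the 1 higher was Top2a, a gene of dividing cells, with 1.46 [0.67, 2.29], and the lineage factor Olig1 had 0.80 [0.57, 1.04]. B2m and H2-D1 had 1.94 [1.10, 2.85] and 1.91 [1.57, 2.26]. Microglial markers summed to 261 CPM in FE4, 987 in TAFE4_oil and 1047 in TAFE4_tam, a ratio of 1.92, whose part in these values was not tested. The lowest was Tarbp2 with -1.08 [-1.76, -0.45], followed by the Notch target Hes1 with -1.02 [-1.61, -0.45].

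**Figure D4:**
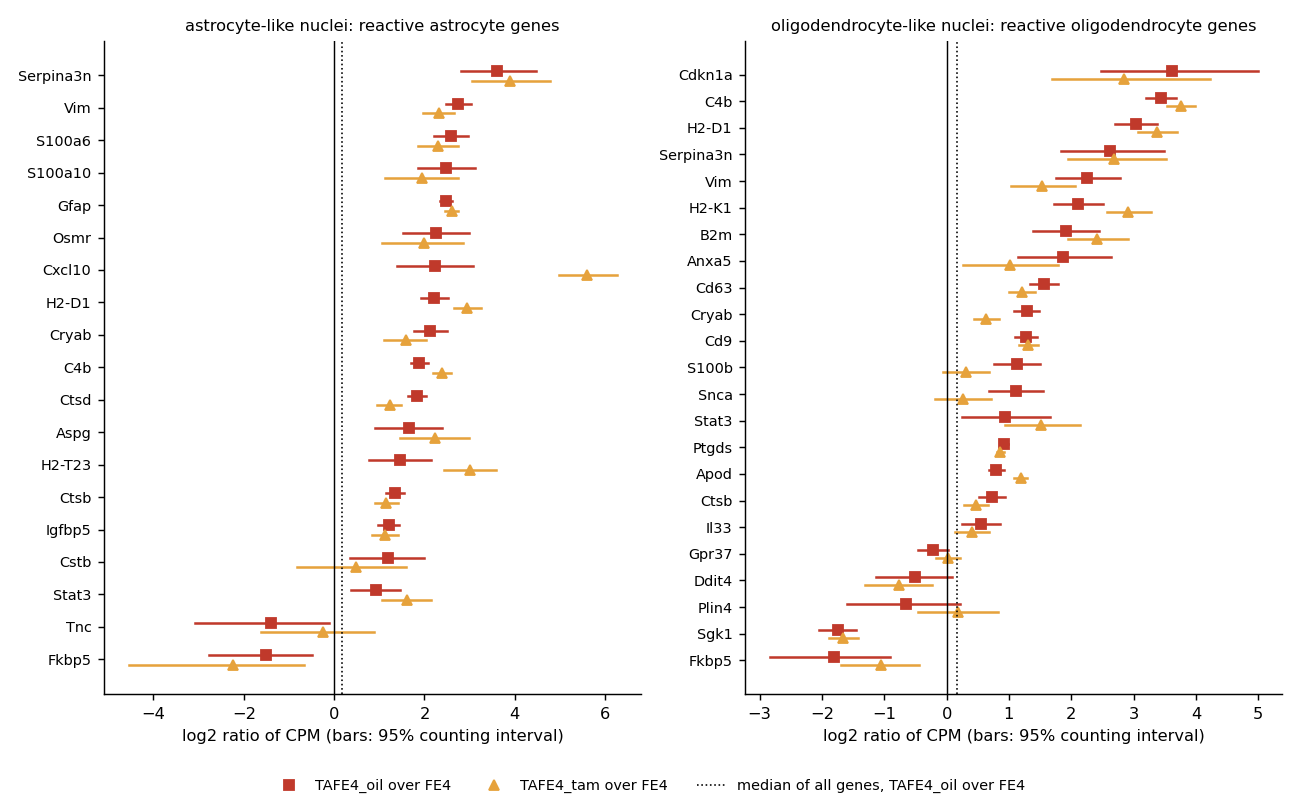
Log2 ratio over FE4 of each tested reactive gene in astrocytes and in oligodendrocytes, for TAFE4_oil and TAFE4_tam, which share FE4 as control (1 library each, bars exact 95% counting intervals, dotted line the median of all genes for TAFE4_oil). Most genes lie right of 0 in both classes, with Serpina3n at 3.60 in astrocytes, C4b at 3.43 in oligodendrocytes and Fkbp5 at -1.52 and -1.81.

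Synaptic genes of hippocampal neurons mostly stayed within 2-fold. In granule neurons 5.83% of 10825 genes were higher past 2-fold and 1.16% lower (631 and 126 genes; 2.96% and 2.28% with TMM factors). In CA1 neurons 6.70% of 9982 were higher and 2.18% lower (669 and 218 genes; 3.02% and 4.03% with TMM factors). Of the glutamate receptor genes, 0 of the 25 tested were higher past 2-fold and 0 lower in granule neurons, with a median of -0.15 beside 0.14 over all genes. In CA1 neurons 1 of the 24 tested were higher past 2-fold and 1 lower, with a median of -0.26 beside 0.14. The AMPA receptor subunit genes Gria2 and Gria3 had -0.46 and -0.67 in granule neurons, and the NMDA receptor subunit gene Grin3a had -1.16 [-1.97, -0.45] in CA1 neurons. Synaptic adhesion genes had medians of -0.09 and -0.11, postsynaptic scaffold genes 0.24 and 0.21, and excitability channel genes 0.07 and 0.01 in granule and CA1 neurons. None of the 27 postsynaptic and 34 channel genes tested in granule neurons passed 2-fold; Scn9a, a sodium channel gene named by size alone, had -1.46 [-2.10, -0.88] there.

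Of the synaptic vesicle and release genes, 2 of the 30 tested were higher past 2-fold and 0 lower in granule neurons and 3 of the 29 tested were higher past 2-fold and 0 lower in CA1 neurons, with medians of 0.21 and 0.07 beside 0.14 and 0.14 over all genes. Single members were higher: Rab3a, the vesicle GTPase, had 1.39 [1.12, 1.65] in granule and 1.17 [0.83, 1.51] in CA1 neurons, and the complexin gene Cplx1 1.32 [0.74, 1.89] and 2.02 [1.32, 2.70]. Cplx1 is also abundant in inhibitory neurons, whose markers summed to 208 CPM in FE4, 387 in TAFE4_oil and 304 in TAFE4_tam in granule neurons, a ratio of 0.90, and had a ratio of 1.11 in CA1 neurons; its part was not tested. Of the tau kinase, phosphatase and Mapt genes, 5 of the 35 tested were higher past 2-fold and 0 lower in granule neurons and 4 of the 35 tested were higher past 2-fold and 1 lower in CA1 neurons. The Cdk5 activators Cdk5r2 and Cdk5r1 had 1.31 [0.85, 1.77] in granule and 1.34 [1.06, 1.60] in CA1 neurons, and the stress kinase gene Nuak1 1.71 [1.12, 2.29] in granule neurons. Most members of the list thus stayed within 2-fold. Of the immediate early genes, which neuronal firing switches on, 4 of the 22 tested were higher past 2-fold and 0 lower in granule neurons and 2 of the 22 tested were higher past 2-fold and 0 lower in CA1 neurons, with Jund at 1.26 and 1.07 and Fosl2 at 1.41 [0.63, 2.16] in granule neurons. Of the heat shock and chaperone genes, 3 of the 21 tested were higher past 2-fold and 0 lower in granule and 5 of the 21 tested were higher past 2-fold and 0 lower in CA1 neurons, with Hspa8 at 1.28 [1.16, 1.39] and Hsp90aa1 at 1.26 [1.11, 1.41] in granule neurons. Unfolded protein genes had medians of 0.26 and 0.19.

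Genes named by size in granule neurons were S100a1, a calcium-binding protein gene, at 8.91 CPM in FE4, 42.5 in TAFE4_oil and 12.7 in TAFE4_tam, a ratio of 2.25 [1.77, 2.74], Trim32 with 2.19 [1.68, 2.70], Pmepa1 with 1.98 [1.64, 2.31] and the glycine receptor gene Glra2 with 1.71 [1.31, 2.10]. The lowest after Scn9a were Elp4 with -1.39 [-2.25, -0.63], Sec1 with -1.31 [-1.81, -0.85] and the peptide gene Grp with -1.12 [-1.93, -0.40]. In CA1 neurons Hivep2, a zinc finger factor gene, stood at 131 CPM in FE4, 469 in TAFE4_oil and 592 in TAFE4_tam, a ratio of 1.84 [1.69, 1.99]; in CA2 or CA3 neurons it had 1.81 [1.63, 1.99]. With APOE3 in place of APOE4, in mice of otherwise like genotypes (TAFE3_oil over FE3), the CA1 ratio of Hivep2 was 0.63. Its difference from 1.84 was not tested. Median mitochondrial shares of the nuclei read were 2.34% in FE3 and 1.49% in TAFE3_oil, against 0.548% in FE4 and 1.86% in TAFE4_oil. Rab5a, an early endosome GTPase gene, had 1.89 [1.32, 2.45] in CA1 neurons, and Plxnd1 and Ier5 had 1.83 [1.35, 2.31] and 1.80 [1.45, 2.14]. The lowest CA1 genes were Fxyd5 with -2.26 [-3.19, -1.47], Cpne5 with -2.15 [-3.30, -1.20] and Prox2 with -2.02 [-3.17, -1.06], then Crtac1, a secreted cartilage acidic protein gene, at 125 CPM in FE4, 45.2 in TAFE4_oil and 81.4 in TAFE4_tam, a ratio of -1.47 [-1.88, -1.08]. With APOE3 its CA1 ratio was -1.39.

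Some lower genes of one neuronal class are abundant in another. C1ql2 and C1ql3, secreted synaptic organisers that granule neurons express strongly, had -1.73 and -1.58 in CA1 neurons and -2.23 and -1.42 in Sst or Pvalb inhibitory neurons. Granule neurons themselves were 22.01% of FE4 and 4.99% of TAFE4_oil nuclei, and the part of their free RNA was not tested. Within granule neurons C1ql3 stood at 1964 CPM in FE4, 1032 in TAFE4_oil and 1028 in TAFE4_tam, a ratio of -0.93 [-0.9996, -0.86]. H2-K1 and B2m had 2.26 and 2.19 in granule and 1.86 and 2.41 in CA1 neurons, beside microglial markers whose ratio was 2.0002 and 2.05. The part of microglial RNA in these MHC values was not tested.

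In other neurons the same rule of size gave few shared names. In Sst or Pvalb inhibitory neurons 7.57% of 10066 genes were higher past 2-fold and 0.387% lower (762 and 39 genes; 3.50% and 0.993% with TMM factors). Unc13c, a vesicle priming gene, had 1.88 [1.27, 2.53], the peptide gene Cartpt 1.69 [1.11, 2.32], and Eya1 -1.42 [-1.87, -0.99]. In Vip or Lamp5 inhibitory neurons 5.89% of 8997 were higher and 0.411% lower (530 and 37 genes; 3.17% and 0.911% with TMM factors). Crh, the gene of corticotropin-releasing hormone, stood there at 12.3 CPM in FE4, 121 in TAFE4_oil and 46.2 in TAFE4_tam, a ratio of 3.30 [2.67, 3.99]. Ndfip1, an adaptor of ubiquitin ligases, had 2.83 [2.13, 3.63], and the peptide gene Npy 1.60 [1.32, 1.88]. The collagen gene Col19a1 had -1.42 [-1.73, -1.12] and Col5a2 -1.49 [-1.91, -1.08]. In CA2 or CA3 neurons 5.63% of 9790 were higher and 1.06% lower (551 and 104 genes; 2.78% and 2.26% with TMM factors), led by the actin-binding gene Cotl1 with 1.91 [1.34, 2.49]; Mast3 had -1.11 [-1.32, -0.90]. In subicular or retrosplenial neurons 7.18% of 9326 were higher and 0.879% lower (670 and 82 genes; 2.76% and 2.09% with TMM factors). There Rmst had 2.24 [1.87, 2.62] and Fbn2 -1.50 [-2.47, -0.65], and both changed sign with coarser clusters. The regional makeup of the inhibitory and subicular classes was not measured.

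Endothelial cells, 105 nuclei in FE4 and 100 in TAFE4_oil, had 7.29% of 2687 genes higher past 2-fold and 7.82% lower (196 and 210 genes; 5.84% and 8.67% with TMM factors). Of the barrier and activation genes, 5 of the 33 tested were higher past 2-fold and 0 lower, with a median of 0.71 beside 0.24 over all genes. Cldn5, the main claudin of the barrier, stood at 1886 CPM in FE4, 5174 in TAFE4_oil and 4788 in TAFE4_tam, a ratio of 1.46 [1.32, 1.59], and the junction scaffold gene Tjp1 had 1.42 [0.80, 2.10]. Summed endothelial markers in these nuclei were also higher, at 5925 CPM in FE4, 11795 in TAFE4_oil and 12408 in TAFE4_tam, and their part was not tested. Of the interferon-stimulated genes, 3 of the 9 tested were higher past 2-fold and 0 lower, with Isg15, a ubiquitin-like modifier, at 74.5 CPM in FE4, 225 in TAFE4_oil and 519 in TAFE4_tam, a ratio of 1.59 [0.91, 2.34]. Ly6a and the immunoproteasome gene Psmb8 had 1.11 [0.91, 1.32] and 1.94 [1.03, 2.97], and the nuclear host RNA Snhg9 -1.65 [-2.22, -1.11]. Blood cell markers summed to 30.5 CPM in FE4, 547 in TAFE4_oil and 459.6 in TAFE4_tam in these nuclei.

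Genes of translation and respiration were higher in TAFE4_oil in nearly every class, together with the mitochondrial RNA of that library. In microglia 43 of the 78 tested were higher past 2-fold and 0 lower for ribosomal protein genes, 45 of the 77 tested were higher past 2-fold and 0 lower for nuclear genes of oxidative phosphorylation and 11 of the 12 tested were higher past 2-fold and 0 lower for mitochondrially encoded genes. Ribosomal protein genes had medians of 1.04 in microglia, 1.16 in astrocytes, 0.94 in oligodendrocytes, 1.02 in granule neurons and 0.52 in endothelial cells. Nuclear oxidative phosphorylation genes had medians of 1.12, 1.16, 0.89 and 0.90 in the first 4 of these classes. Mitochondrially encoded genes, on which the nuclei were filtered, had 1.36, 0.84, 1.20 and 1.57. In TAFE4_tam, whose mitochondrial share was close to that of FE4, the medians of these lists were 0.28, 0.23 and -0.14 in oligodendrocytes, 0.84, 0.64 and 0.48 in microglia, 0.74, 0.68 and 0.24 in astrocytes and 0.60, 0.41 and 0.18 in granule neurons. RNA outside nuclei carries these transcripts in abundance, and it cannot be told apart here from a change within cells.

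**Figure D5:**
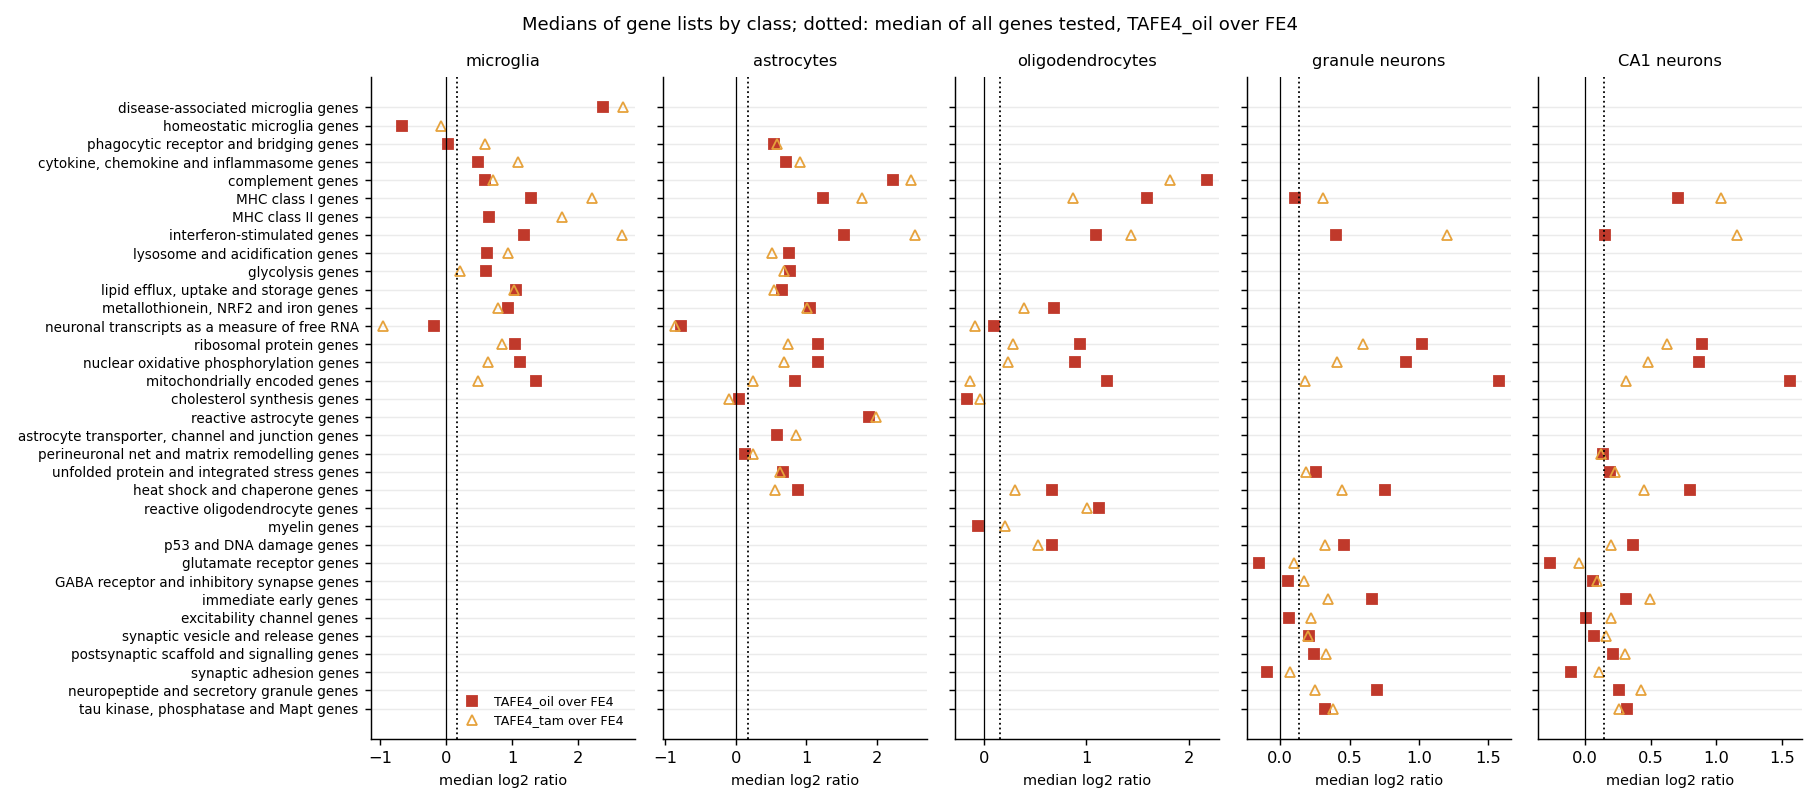
Median log2 ratio of TAFE4_oil and of TAFE4_tam over FE4 for each gene list with at least 5 tested genes in microglia, astrocytes, oligodendrocytes, granule and CA1 neurons, with the median of all tested genes for TAFE4_oil as a dotted line (1 library each, no test, each panel with its own scale). Disease-associated genes in microglia (2.37) and complement genes in astrocytes (2.22) lie highest in their panels for TAFE4_oil, and ribosomal genes near 1 in most classes.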

How the data were processed

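Single-nucleus RNA was measured in 6 libraries, 1 per group. The deposited values are counts, that is UMIs per gene and nucleus. Per the file headers the authors' tables came from Cell Ranger 3.1.0, and the submitters' processing notes name mm10 and Seurat; other settings are not given in the sources used here. There were 33457 features, human APOE among them.

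Marked doublets (scrublet in scanpy 1.11.5, run per library) were left out, 5.39% of the nuclei of TAFE4_oil and 3.74% of those of FE4. In TAFE4_tam 14.5% were left out. The expected rates given to scrublet were 10.4% in TAFE4_oil, 13.2% in FE4 and 11.55% in TAFE4_tam, so doublets were removed unevenly between libraries. All libraries were clustered together (Leiden, leidenalg 0.10.2, resolution 1, 29 clusters). UMIs were summed per class and library, scaled to CPM and compared as log2 ratios with exact conditional binomial intervals at 95%. Where a library had 0 UMIs of a gene, the ratio was taken against a floor of 3 and is a bound; sums of 1 or 2 were set to 3 in list medians and rankings and are printed at their own ratio. Thinning drew 500 UMIs from each nucleus without replacement. Intervals cover counting error only.

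Besides list members, the text names from up to 6 genes a side per class. These had the largest ratios among genes of 100 or more UMIs over both libraries, with an interval beyond 0, at least 20 CPM in the library where they were higher, and a level not below that of the remaining nuclei. Mitochondrial, ribosomal and Y-linked genes, Xist, Tsix, unnamed models and other classes' markers did not enter. Other X-linked genes were kept. From each list come the members farthest from 0 on both sides and a few that define it. The members and lists were chosen with earlier results of these data known. A few list members are counted but not reported by name here. The ratio script was tested on simulated data. Alternatives were TMM factors (edgeR 4.0.16, R 4.3.3), totals without housekeeping RNA, other UMI, mitochondrial and doublet limits, coarser clusters, other thinning, and TAFE4_tam in place of TAFE4_oil. Other tools were Python 3.11.15, numpy 2.4.6, scipy 1.17.1 and pandas 2.3.3.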

Additional observations from a re-analysis of the deposited data

Results flagged for a closer look

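Of 132 named genes checked in the 11 classes read, 2 in endothelial cells had opposite directions in the APOE4 pair and in the APOE3 pair (TAFE3_oil over FE3), each past its counting interval. The difference was not tested, since each pair is 1 library a side. Endothelial nuclei numbered 39 in FE3, 130 in TAFE3_oil, 105 in FE4 and 100 in TAFE4_oil. The pairs also differed in mitochondrial RNA in opposite directions. The median share of a barcode was 3.23% in FE3 and 2.01% in TAFE3_oil, against 0.625% in FE4 and 2.35% in TAFE4_oil. Mapk3, the kinase ERK1, stood at 77.9 CPM in FE4 and 219.8 in TAFE4_oil, a log2 ratio of 1.497 [0.82, 2.23], and at 183.8 CPM in FE3 and 82.6 in TAFE3_oil, a ratio of -1.15 [-1.97, -0.35]. The ratios differed by 2.65, on 23 and 86 UMIs in the APOE4 pair. Ppap2b, a lipid phosphate phosphatase, stood at 484 CPM in FE4 and 245 in TAFE4_oil, a ratio of -0.98 [-1.37, -0.60], and at 298.7 CPM in FE3 and 624 in TAFE3_oil, a ratio of 1.06 [0.61, 1.54]. The ratios differed by -2.04. Ppap2b was also among the leading genes of the astrocyte cluster, and the part of astrocyte RNA in its values was not tested.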

How the results depend on the processing

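Most values kept their direction under the alternatives run, and the choice of tau library, the 1% mitochondrial limit and TMM factors moved the most values. Over all alternatives, 1153 list medians stayed within the margin set for them, 145 moved beyond it and 6 were counted as changed in sign. For named genes these numbers were 1146, 153 and 9, and for shares of classes 20, 13 and 3. Small list medians could change sign without being counted so. That of glutamate receptor genes in granule neurons was -0.15 for TAFE4_oil and 0.098 for TAFE4_tam over FE4. Of the shares of genes past 2-fold, 67 stayed and 33 moved, and of the shares of nuclei with a gene, 14 stayed and 40 moved with other thinning. Thinned to 1000 UMIs, which leaves 156, 504 and 500 microglia in FE4, TAFE4_oil and TAFE4_tam, interferon-rich microglia were 1.28%, 20.2% and 58.2%, and those with at least 20 APOE UMIs 0%, 51.8% and 49.0%. No paired analysis was possible because each group is 1 library. The cause of the shifts was not tested, except that stricter limits leave fewer genes or nuclei: the 1% mitochondrial limit keeps 65 microglia, 17 astrocytes and 63 oligodendrocytes of TAFE4_oil and no endothelial nucleus, so that class has no value there.

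Shares of tested genes past 2-fold moved with several settings. With TMM factors astrocytes had 4.98% higher and 9.05% lower, oligodendrocytes 2.85% and 2.36%, granule neurons 2.96% and 2.28% and CA1 neurons 3.02% and 4.03%, with 2.91% lower in microglia. With at least 20 UMIs per gene 1.91% were lower in oligodendrocytes. With at least 200 UMIs 0.360% were lower in granule neurons, 4.45% were higher and 0.953% lower in CA1 neurons, and the median of disease-associated genes was 1.38. With doublets kept, 2.58% of astrocyte genes were lower.

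Depth and mitochondrial limits moved both genes and shares of nuclei. With at least 1000 UMIs per nucleus 14.5% of microglial genes were higher, the homeostatic median was -0.010, and the share ratios of microglia and oligodendrocytes were 1.98 and 0.28, the latter a change of sign. With no mitochondrial limit 2.96% of microglial and 8.07% of astrocyte genes were lower, the share ratios of microglia and astrocytes were 1.58 and -0.74, and the endothelial medians of ribosomal and mitochondrially encoded genes turned to -0.015 and -0.022. With the 1% limit 3.04% of microglial genes were higher and 5.86% lower, and the microglial medians were 0.54 for disease-associated, -1.39 for homeostatic and 0.16 for MHC class I genes; those of complement, lysosome and free neuronal RNA changed sign to -0.41, -0.044 and 0.13. In astrocytes 1.23% were then lower, the reactive median was 0.80, and B3gat2, Pyroxd1, Sec14l2 and Mcu turned to 1.22, 0.64, 0.87 and 0.46. Lower genes made up 3.93% in oligodendrocytes, 3.20% in granule and 3.67% in CA1 neurons. The share ratios were then -0.13 for microglia, a change of sign, -2.68 for astrocytes, -1.99 for oligodendrocytes, -1.90 for CA1 and -0.998 for CA2 or CA3 neurons.

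With TAFE4_tam in place of TAFE4_oil, and the same FE4 control, 5.40% of microglial genes were lower, and the medians were -0.075 for homeostatic, 2.35 for MHC class I and 3.39 for interferon-stimulated genes, over the members that pass 50 UMIs in that pair. Genes higher and lower were 6.87% and 7.03% in astrocytes, 1.65% and 0.554% in oligodendrocytes, and for granule and CA1 neurons 2.06% and 0.678%, and 1.85% and 0.919%. Share ratios were 1.64 for microglia, -1.94 for astrocytes, 0.23 for oligodendrocytes, -0.86 for granule, -0.71 for CA1 and -0.53 for CA2 or CA3 neurons. The signs counted as changed were those of Sec14l2 in astrocytes (0.13), Slc27a3 in granule neurons (0.049), Col5a2 in Vip or Lamp5 neurons (0.29) and mitochondrially encoded genes in oligodendrocytes (-0.14). At resolution 0.5, 1.20% of CA1 genes were lower, the CA1 share ratio was -2.05, and in subicular or retrosplenial neurons Rmst and Fbn2 turned to -1.45 and 0.19. Depth limits the rare genes most: of 53 interferon-stimulated genes listed, 17 could be tested in microglia.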
